A study of Mus musculus with 20 samples.

Results

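The clustered histone genes were examined in total RNA from the brains of aged TDP-43 KQ/KQ mice (KQ) and their wild-type littermates (WT). They were taken as the rows whose symbol opens with Hist, a cluster digit and h (Hist1h1a, Hist2h2be and so on). Such a symbol was carried by 69 of the 24528 genes listed. Of these, 9 were listed at 0 in every library, and the other 60 are described here, out of 20145 genes in all that were not at 0 throughout. The 60 held 6 H1 linker histone genes, 16 H2A, 16 H2B, 10 H3 and 12 H4 genes. RefSeq placed 48 of them on mouse chromosome 13 (Hist1), 8 on chromosome 3 (Hist2), 3 on chromosome 11 (Hist3) and 1 on chromosome 6 (Hist4), and annotated 58 as protein-coding and 2, Hist1h2al and Hist3h2bb-ps, as transcribed pseudogenes. All 69 symbols matched a RefSeq gene of GRCm38.p6.

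The mice were 18 months old, of both sexes and from 5 litters. KQ mice were homozygous for a lysine-to-glutamine substitution in the endogenous Tardbp gene that mimics acetylation, introduced into C57BL/6J zygotes with CRISPR, so that every cell carried it, and WT mice were littermates without it. Libraries were made from total RNA of hippocampus or neocortex after depletion of ribosomal RNA. The libraries were 5 from KQ hippocampus (3 female, 2 male), 4 from WT hippocampus (3 female, 1 male), 6 from KQ neocortex (3 female, 3 male) and 5 from WT neocortex (3 female, 2 male). Each is named by sex and number, as in M1.

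The deposited values were log2-like, had sex and litter effects already taken out by the authors, and were set so that each gene averaged 0 over the KQ neocortex libraries. A value is therefore a distance from KQ neocortex and not a level, and levels of different genes could not be compared. Depth could not be read from these values. In bulk tissue, fewer cells of a type and less RNA per cell cannot be told apart. Tardbp followed the labels, at -0.16 to 0.16 in KQ hippocampus and -1.03 to -0.62 in WT hippocampus, and at -0.10 to 0.13 in KQ neocortex and -1.07 to -0.90 in WT neocortex. The tissue labels also held, since Neurod6 was higher in hippocampus than in neocortex by 1.25 ± 0.102 (SE) in KQ mice and Rorb, a gene of upper cortical layers, was lower by 1.04 ± 0.0763. Tshz2, also listed as a neocortex marker, went the other way, at 0.67 to 1.29 in KQ hippocampus against -0.33 to 0.25 in KQ neocortex. Library medians of the 8 neocortex markers were -1.42 to -0.98 in KQ hippocampus and -0.25 to 0.13 in KQ neocortex. Libraries from litters with few members carried less information: WT neocortex M1, the only library of its litter, lay on its group mean for every gene, and the KQ F2 libraries of hippocampus and neocortex, the only pair of theirs, deviated from their group means by equal amounts in opposite directions. The tests fitted sex and litter again, so that the degrees of freedom already spent on them were not counted. The labels do not state which libraries share a mouse, and p-values measure the spread between these libraries. The M1 libraries of hippocampus and neocortex came from different litters in each genotype, so they are from different mice.

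Clustered histone genes encode the nucleosome core proteins H2A, H2B, H3 and H4 and the H1 that binds the linker DNA between nucleosomes. In dividing cells they are transcribed together in S phase, and their messages are unusual in ending in a conserved stem-loop, bound by SLBP and cut with the help of the U7 small nuclear RNP, in place of a poly-A tail. Adult brain holds few dividing cells, and neurons also use histone variant genes outside the clusters, whose messages are polyadenylated. Ribosomal depletion keeps both kinds of message, whereas poly-A selection loses most messages without a tail.

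The stem-loop was read from GENCODE M21 transcripts (GRCm38) to see which of these genes are annotated with it. Of the 60 genes, 43 had a model with 50 or more bases after the stop codon. In 41 of the 43 the first 100 of those bases held an exact stem of 6 base pairs opening in GG, with a loop of 4 bases, against 117 of 20642 protein-coding genes in all (0.6%). The stem letters followed the histone type: GGCTCT opened it in all 30 H1, H2A, H2B and H3 genes that had it, and GGCCCT (9 genes) or GGTCCT (2 genes) in the 11 H4 genes. The sequences below belong to genes that were lower in hippocampus in KQ mice, in the order H1, H2A, H2B, H3 and H4, each from the sense strand with the paired stem letters in capitals. Hist1h1c lies at chr13:23739507-23739532, Hist1h2ag at chr13:22042478-22042503, Hist1h2bm at chr13:21722501-21722526, Hist3h2ba at chr11:58949344-58949369, Hist1h3a at chr13:23761885-23761910, Hist1h4b at chr13:23757361-23757386 and Hist1h4d at chr13:23581945-23581970.
Hist1h1c: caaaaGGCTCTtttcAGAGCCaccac
Hist1h2ag: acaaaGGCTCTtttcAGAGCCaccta
Hist1h2bm: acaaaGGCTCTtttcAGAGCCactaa
Hist3h2ba: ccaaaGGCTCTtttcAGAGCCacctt
Hist1h3a: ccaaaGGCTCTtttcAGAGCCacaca
Hist1h4b: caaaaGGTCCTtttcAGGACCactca
Hist1h4d: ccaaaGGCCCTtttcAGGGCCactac

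Of the 43, the 2 genes without it were Hist1h2bc, whose model is spliced over 2 exons, and Hist2h2be, whose model is 1 exon with 2192 bases after the stop codon. Neither transcript held such a stem-loop at any position (0 found in 1156 and 2620 bases). A missing match says only that these letters are not in these models. The other 17 genes, Hist1h4k, Hist1h1b and Hist1h1a among them, had no model with 50 or more bases after a stop codon and were not searched.

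Promoters of the members also shared sequence. RefSeq start sites gave 54 promoters for 53 of the 60 genes, each of 250 bases before and 50 after the start. CCAAT, on either strand, stood in 46 of the 54 (85.2%, against 37.4% of all 32851 promoters), in every H1, H2A, H2B and H3 promoter and in 3 of 11 H4 promoters. TATAAA on the sense strand stood in 27 (50%, against 8.3%). The octamer ATGCAAAT, on either strand, stood in 12 (22.2%, against 1.7%), which were 6 of 15 H2A and 6 of 14 H2B promoters. These matches describe letters and are not binding sites. The promoters of the H4 and the H1 gene that fell furthest in hippocampus in both genotypes are shown with these motifs in capitals, Hist1h4k at chr13:21750504-21750803 and Hist1h1b at chr13:21780576-21780875, both on the minus strand of GRCm38.p6.
Hist1h4k: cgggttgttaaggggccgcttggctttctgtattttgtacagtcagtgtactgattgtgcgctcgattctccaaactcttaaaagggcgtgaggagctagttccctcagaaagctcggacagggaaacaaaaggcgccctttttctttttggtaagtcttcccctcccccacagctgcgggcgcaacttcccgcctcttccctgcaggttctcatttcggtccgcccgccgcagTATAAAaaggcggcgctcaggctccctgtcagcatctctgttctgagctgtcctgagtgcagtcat
Hist1h1b: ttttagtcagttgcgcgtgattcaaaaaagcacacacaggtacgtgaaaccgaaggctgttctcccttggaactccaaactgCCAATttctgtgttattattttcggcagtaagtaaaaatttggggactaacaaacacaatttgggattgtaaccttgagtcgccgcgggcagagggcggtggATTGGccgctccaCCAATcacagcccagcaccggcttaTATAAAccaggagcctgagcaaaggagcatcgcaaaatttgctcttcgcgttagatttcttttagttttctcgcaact

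Close copies limit what is known of a single gene. Of the 60 genes, 18 shared over 50% of the 100-base windows of their longest GENCODE transcript with another gene, 1 (Hist2h2aa2) shared all, and 6 shared none. That transcript can be far longer than the RefSeq span, as for Hist1h2ac (2482 against 487 bases), and the share within RefSeq transcripts was not measured. The study estimated abundance with Salmon, which divides reads that fit several transcripts, so values of copies are uncertain. Of the 9 genes at 0 in every library, Hist1h2ao, Hist1h2ap, Hist1h2bq, Hist1h2br, Hist1h4n, Hist2h3c1 and Hist2h3c2 shared over 50% of their windows. The other 2, Hist1h2aa and Hist1h2ba, are known as testis histone genes. These 9 were not tested. Below, a share over 50% is given where the values of the gene are first described.

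The comparison of hippocampus with neocortex in each genotype asked how these genes vary between the regions of the study. Most clustered histone genes had a lower estimate in hippocampus than in neocortex in both genotypes, though in WT mice the share that passed the test was no higher than that of all genes. Hist2h2be was the exception that passed the test in the other direction. In KQ mice, 21 of 60 (35.0%) were lower in hippocampus at an adjusted p under 0.05 (limma, Benjamini-Hochberg over 17863 genes), where 18.2% of all genes tested were, and 1 was higher, where 17.2% were. In WT mice, 8 of 60 (13.3%) were lower, where 14.7% of all genes were, and 1 was higher, where 13.5% were. Single libraries moved both shares. With 1 library left out at a time, the share lower ran between 18.3% and 66.7% in KQ mice and between 3.33% and 40% in WT mice. The median difference, hippocampus minus neocortex, was -0.20 over the 60 genes in KQ mice and -0.14 in WT mice, against 0.01 over all genes tested in each. Of the 60, 54 had a negative difference in KQ mice and 54 in WT mice. The genes varied together from library to library, so these signs are not independent. Whether the region difference itself differed by genotype was tested with an interaction term, and 0 of the 60 passed (limma, 0 at an unadjusted p under 0.05), where 0% of all genes passed and 5.83% had an unadjusted p under 0.05.

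**Figure D1:**
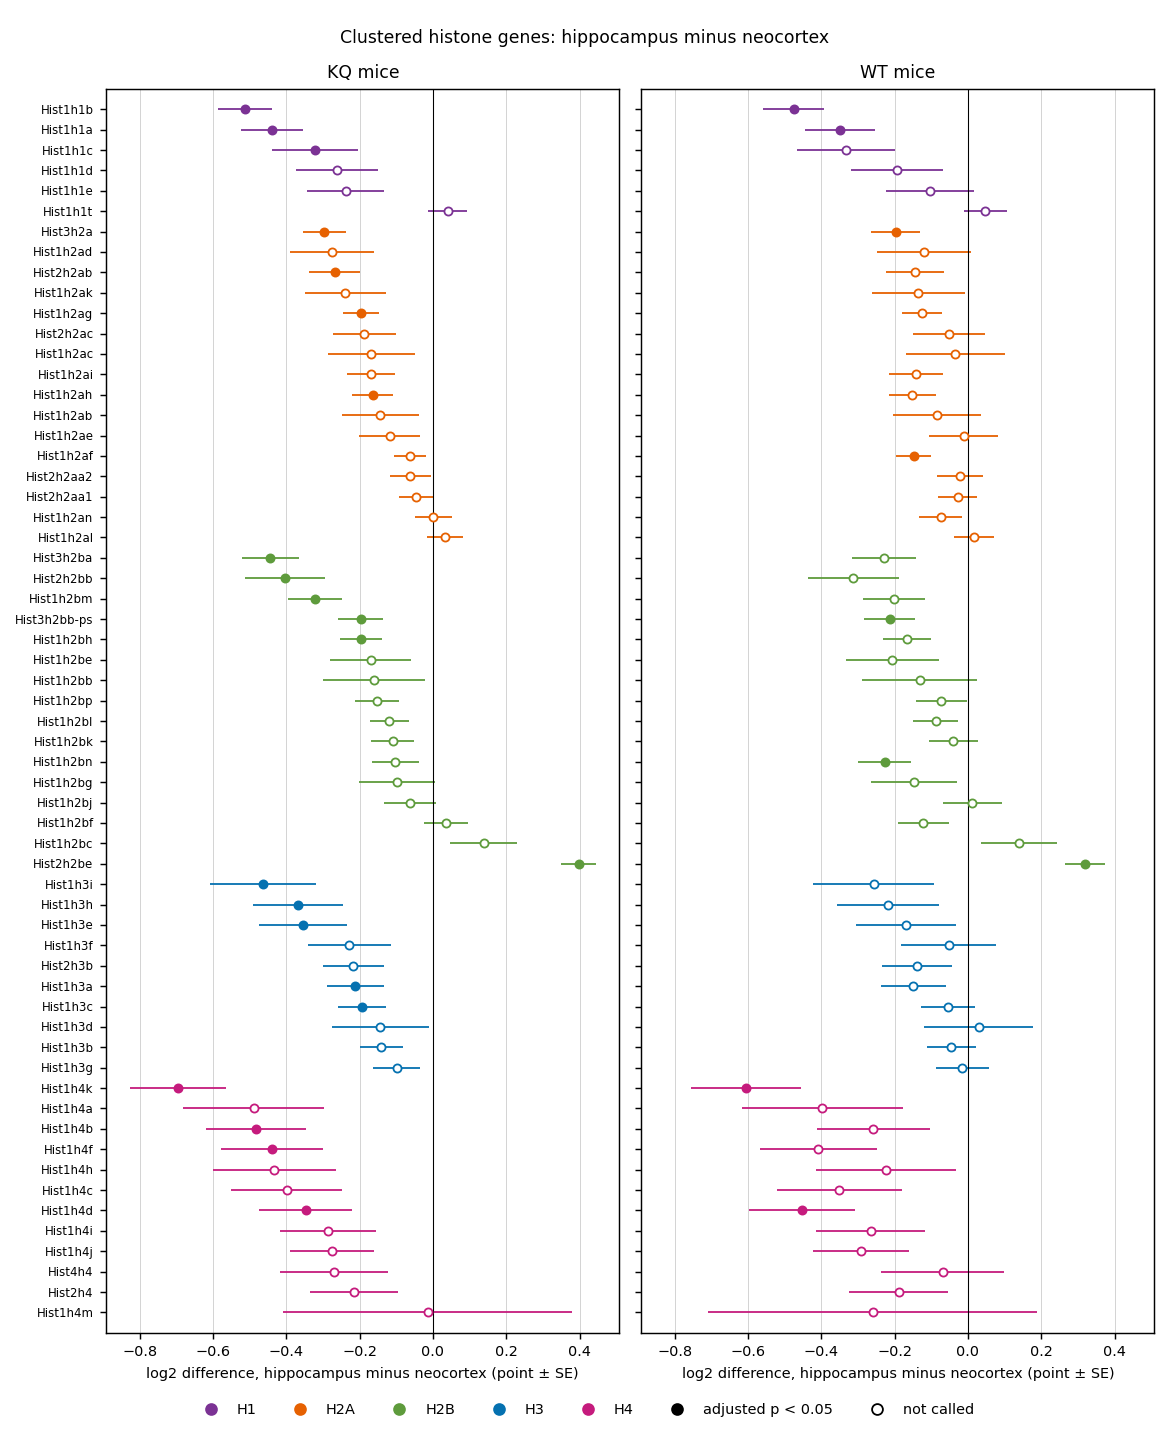
Difference between hippocampus and neocortex (x axis, log2, hippocampus minus neocortex) for each of the 60 genes (rows, by histone type), in KQ mice on the left and WT mice on the right, as point ± SE. Filled points passed an adjusted p of 0.05, which were 22 genes in KQ mice and 9 in WT mice, and Hist2h2be is the only filled point right of 0 in either panel.

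Among the linker histones, Hist1h1b and Hist1h1a fell in hippocampus in both genotypes. Hist1h1b measured -0.56, -0.52, -0.68, -0.30 and -0.52 in KQ hippocampus (F1, F2, F3, M1, M2) against a lowest, median and highest of -0.11, 0.00 and 0.09 in KQ neocortex. It measured -0.51, -0.25, -0.43 and -0.50 in WT hippocampus (F1, F2, F3, M1) against -0.06, 0.12, 0.17, 0.05 and -0.02 in WT neocortex (F1, F2, F3, M1, M2). The regions did not overlap in either genotype, and the difference was -0.51 ± 0.0736 (SE) in KQ mice (adjusted p = 6.01e-05, limma) and -0.48 ± 0.0837 in WT mice (adjusted p = 0.000496, limma). Hist1h1a did not overlap either, at -0.54 to -0.19 in KQ hippocampus against -0.14 to 0.09 in KQ neocortex and at -0.59 to -0.24 in WT hippocampus against -0.21 to 0.03 in WT neocortex. It fell by 0.44 ± 0.0845 in KQ mice and by 0.35 ± 0.0961 in WT mice (limma, adjusted p = 0.000836 and 0.0131). Hist1h1c passed in KQ mice, at -0.32 ± 0.117 (adjusted p = 0.0431, limma), and missed in WT mice, at -0.33 ± 0.133 (adjusted p = 0.0757, limma), with an interaction of 0.01 ± 0.177. In KQ mice this call was lost in 13 of 30 alternatives, with an adjusted p of 0.00893 to 0.181 over them (limma). Hist1h1t, a testis linker histone, had differences of 0.04 in KQ mice and 0.05 in WT mice.

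Among the H4 genes every one of the 12 had a negative difference in each genotype, with a median of -0.37 in KQ mice and -0.28 in WT mice. Of the 12, 4 passed in KQ mice (Hist1h4k, Hist1h4b, Hist1h4f and Hist1h4d), where 18.2% of all genes were lower. In WT mice 2 passed (Hist1h4k and Hist1h4d), where 14.7% of all genes were lower. Hist1h4k had the lowest differences of all 60 genes. It measured -0.87, -0.83, -0.83, -0.30 and -0.65 in KQ hippocampus against -0.17, -0.03 and 0.20 (lowest, median, highest) in KQ neocortex. It measured -0.68, -0.28, -0.57 and -0.62 in WT hippocampus against 0.08, 0.28, 0.21, 0.07 and -0.31 in WT neocortex. The regions were apart in KQ mice, while in WT mice hippocampus F2 lay above neocortex M2. The difference was -0.70 ± 0.132 in KQ mice (adjusted p = 0.00074, limma) and -0.61 ± 0.15 in WT mice (adjusted p = 0.00694, limma), with 64.3% of its windows shared with other genes. Hist1h4d, which shares none, fell by 0.35 ± 0.128 in KQ mice, a call lost in 16 of 30 alternatives, and by 0.45 ± 0.145 in WT mice, a call lost in 6. Hist1h4b fell by 0.48 ± 0.136 and Hist1h4f by 0.44 ± 0.14 in KQ mice.

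The H2A and H2B genes were divided. All 3 genes of the small Hist3 cluster on chromosome 11 fell in KQ mice, and Hist3h2a and Hist3h2bb-ps in WT mice as well. Hist3h2a measured -0.37, -0.29, -0.30, -0.16 and -0.36 in KQ hippocampus against -0.04, -0.02 and 0.06 (lowest, median, highest) in KQ neocortex, with no overlap. It measured -0.35, -0.21, -0.51 and -0.31 in WT hippocampus against -0.19, -0.12, -0.03, -0.15 and -0.23 in WT neocortex, where hippocampus F2 lay within the neocortex range. The difference was -0.30 ± 0.059 in KQ mice (adjusted p = 0.00109, limma) and -0.20 ± 0.0671 in WT mice (adjusted p = 0.0393, limma). Hist3h2ba fell by 0.44 ± 0.0771 in KQ mice (adjusted p = 0.000358, limma), and its difference in WT mice was -0.23 ± 0.0877 (adjusted p = 0.0652). The pseudogene Hist3h2bb-ps fell by 0.20 ± 0.0613 in KQ mice and by 0.21 ± 0.0697 in WT mice.

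Outside that cluster, Hist1h2ag (76.2% of windows shared), Hist1h2ah (87.9% shared) and Hist2h2ab fell among the H2A genes in KQ mice, by 0.20, 0.16 and 0.27. Among the H2B genes Hist1h2bm, Hist1h2bh and Hist2h2bb fell in KQ mice, by 0.32, 0.20 and 0.40. Hist1h2af (65.3% shared) and Hist1h2bn (52.1% shared) passed in WT mice instead, with differences of -0.15 and -0.23 there and of -0.06 and -0.10 in KQ mice. Among the H3 genes Hist1h3a, Hist1h3c, Hist1h3e, Hist1h3h (92% shared) and Hist1h3i (68.6% shared) fell in KQ mice, by 0.19 to 0.46, and 0 of 10 H3 genes passed in WT mice (limma, 0 at an unadjusted p under 0.05).

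Hist2h2be went the other way. It encodes an H2B that differs slightly in sequence from the common form and is known from olfactory sensory neurons, and it shared none of its windows with another gene. It measured 0.28, 0.42, 0.40, 0.39 and 0.50 in KQ hippocampus against -0.04, -0.01 and 0.08 (lowest, median, highest) in KQ neocortex. It measured 0.35, 0.42, 0.30 and 0.26 in WT hippocampus against 0.05, 0.03, 0.06, 0.01 and -0.08 in WT neocortex. Every hippocampus library stood above every neocortex library. The difference was 0.40 ± 0.0478 in KQ mice (adjusted p = 1.09e-05, limma) and 0.32 ± 0.0544 in WT mice (adjusted p = 0.000371, limma). The next highest differences were those of Hist1h2bc, at 0.14 in each genotype, which did not pass.

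**Figure D2:**
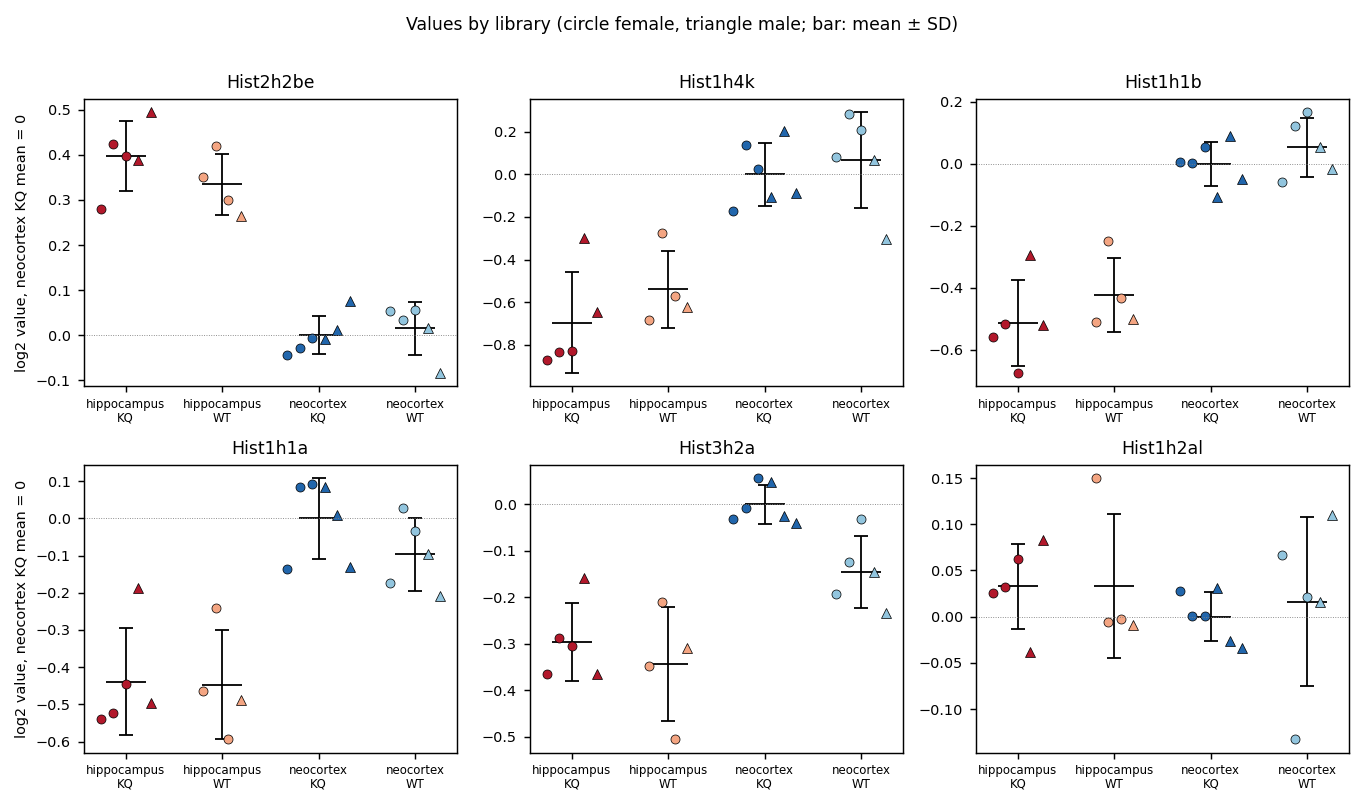
Values of 6 genes in every library (y axis, log2 value with the mean of KQ neocortex at 0; x axis, groups; circles female, triangles male; bars mean ± SD). Hist2h2be stands higher in all 9 hippocampus libraries than in all 11 neocortex libraries, Hist1h1b and Hist1h1a stand lower within each genotype, and the pseudogene Hist1h2al lies between -0.13 and 0.15 everywhere.

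Counted without a test, 6 of 60 genes in KQ mice had every hippocampus library below every neocortex library (Hist1h1a, Hist1h1b, Hist1h2ag, Hist1h4k, Hist3h2a and Hist3h2ba), where 15.5% of all genes did, and 1 (Hist2h2be) had them above, where 12.2% did. In WT mice 3 were below (Hist1h1a, Hist1h1b and Hist1h2af), where 16.8% of all genes were, and 1 (Hist2h2be) was above, where 15.3% were. These shares lay below those of all genes. In the 6 female pairs of libraries with the same genotype, number and litter, 38 of 60 genes were lower in hippocampus in all 6, where 20.9% of all genes were, and Hist2h2be alone was higher in all 6, where 18.7% were. These pairs are part of the same libraries and give no independent support. Hist1h4k differed by -0.70, -0.97 and -0.85 in the KQ pairs and by -0.77, -0.56 and -0.78 in the WT pairs.

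The counts in each genotype depended on single libraries. The count of genes lower in KQ hippocampus was 40 of 60 without KQ hippocampus M1, where 18.1% of all genes were lower. It was 11 without either KQ F2 library, where 17.1% of all genes were, a share near the 18.3% of members. It was 12 without KQ hippocampus F1, KQ hippocampus M2 or KQ neocortex M2, where 15.3%, 15.9% and 16.9% of all genes were. It was 13 without KQ neocortex F3 (14.9% of all genes) and 14 without KQ hippocampus F3 (16.5%). In WT mice the count was 24 without WT neocortex M2, where 13.9% of all genes were lower, and 13 without WT hippocampus F2, where 16.3% were. It was 5 without WT neocortex F1 (12.9% of all genes), 3 without WT hippocampus F1 (12.0%) or M1 (12.5%), and 2 without WT hippocampus F3 (11.3%), WT neocortex F2 (11.8%) or WT neocortex F3 (11.3%). It was also 13 without KQ hippocampus M1, where 14.6% of all genes were. Hist2h2be, Hist1h1b and Hist1h4k passed in both genotypes in all 30 alternatives run for them. Of the 21 genes lower in KQ mice, 9 passed in all 30 (Hist1h1b, Hist1h1a, Hist1h4k, Hist1h2ag, Hist1h2bm, Hist2h2ab, Hist2h2bb, Hist3h2a and Hist3h2ba). The calls lost most often were those of Hist1h3a and Hist1h4d, each in 16 of 30, and of Hist1h1c, in 13.

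Other genes of the pathway did not move as one. For the counts below, 17.2% of all genes were higher and 18.2% lower in KQ hippocampus, and 13.5% and 14.7% in WT hippocampus. Of 20 genes for histone message processing and decay, 2 were higher and 3 lower in hippocampus in KQ mice and 2 higher and 1 lower in WT mice, with medians of -0.01 and -0.02. Lsm11, a part of the U7 particle, was higher by 0.22 ± 0.0517 in KQ mice and by 0.35 ± 0.0589 in WT mice, and Slbp did not pass, at -0.08 ± 0.0549 and -0.12 ± 0.0625. Of 30 genes of DNA replication and S phase, 5 were higher and 6 lower in KQ mice and 4 higher and 7 lower in WT mice, with medians of -0.01 and -0.02. Of 11 histone variant genes outside the clusters, H2afz, H2afx and H2afy2 were lower in KQ hippocampus, and H2afz and H2afy2 were lower and H2afj higher in WT hippocampus. Of 17 histone chaperones, 2 were higher and 2 lower in KQ mice and 0 higher and 2 lower in WT mice, and Nap1l1 fell in both, by 0.34 and 0.49. Of 15 short non-polyadenylated RNAs that could be tested, 4 were lower in KQ hippocampus and 0 passed in WT mice (limma, 1 at an unadjusted p under 0.05), with medians of -0.20 and -0.08. These lists were chosen with earlier results of these data known.

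Other cell types and RNA classes moved between the regions too. Beside the counts of these lists, 17.2% of all genes were higher and 18.2% lower in KQ hippocampus, and 13.5% and 14.7% in WT hippocampus. Neuron markers were lower in hippocampus for 6 of 8 genes in KQ mice and 4 of 8 in WT mice, with library medians of -0.37 to -0.21 in KQ hippocampus, -0.05 to 0.07 in KQ neocortex, -0.19 to -0.09 in WT hippocampus and 0.02 to 0.11 in WT neocortex. Choroid plexus markers were higher for 7 of 8 genes in KQ mice and 0 of 8 in WT mice (limma, 1 at an unadjusted p under 0.05), with library medians of 0.21 to 3.38 in KQ hippocampus, -0.84 to 1.61 in KQ neocortex, -0.20 to 1.69 in WT hippocampus and -0.43 to 0.54 in WT neocortex. Nuclear long noncoding RNAs such as Neat1 were higher for 2 of 8 genes in KQ mice and 4 of 8 in WT mice, with library medians of 0.09 to 0.90 in KQ hippocampus, -0.52 to 0.64 in KQ neocortex, -0.43 to 0.81 in WT hippocampus and -1.21 to -0.18 in WT neocortex. Neuroblast markers, which would mark the dividing niche of the dentate gyrus, had library medians of -0.17 to 0.17 in KQ hippocampus, -0.07 to 0.10 in KQ neocortex, -0.01 to 0.10 in WT hippocampus and -0.08 to 0.17 in WT neocortex. Some glial markers were higher in hippocampus. Oligodendrocyte precursor markers were called higher for 3 of 8 genes in each genotype, and their library medians did not overlap, at 0.09 to 0.34 in KQ hippocampus against -0.09 to 0.09 in KQ neocortex and at 0.11 to 0.28 in WT hippocampus against -0.04 to 0.01 in WT neocortex. Astrocyte markers were called higher for 5 of 8 genes in each genotype, at 0.15 to 0.37 in KQ hippocampus against -0.10 to 0.12 in KQ neocortex and at 0.17 to 0.54 in WT hippocampus against 0.09 to 0.22 in WT neocortex. Oligodendrocyte markers were called higher for 2 of 8 genes in KQ mice and 3 of 8 in WT mice, at -0.02 to 0.30 in KQ hippocampus against -0.11 to 0.12 in KQ neocortex and at 0.30 to 0.62 in WT hippocampus against 0.09 to 0.38 in WT neocortex. The part of these in the histone differences was not tested.

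**Figure D3:**
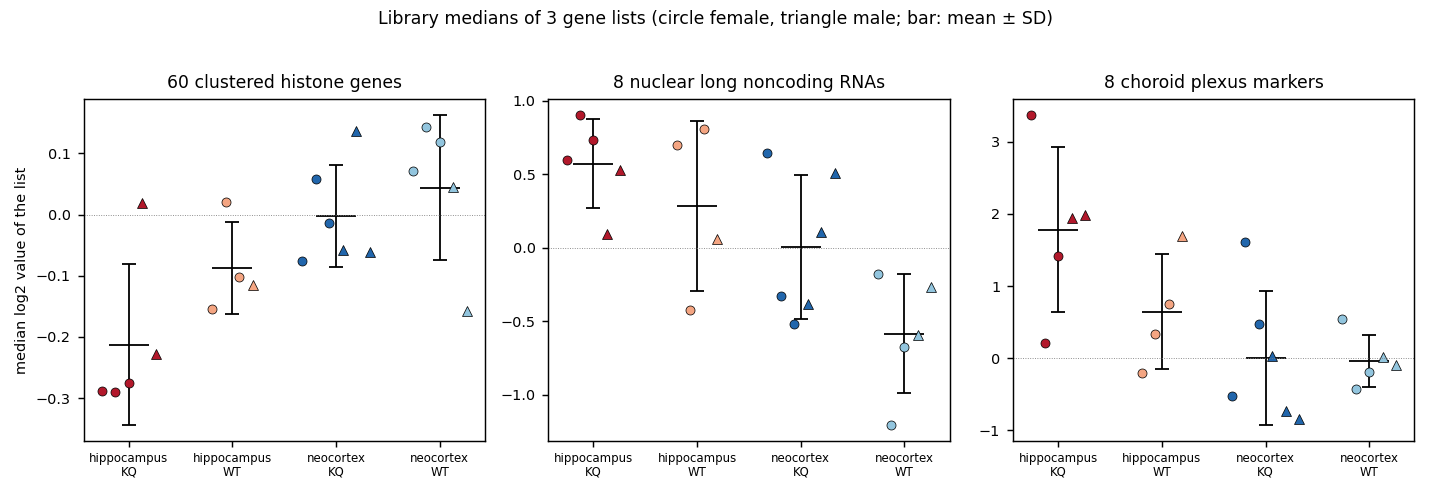
Median log2 value of 3 gene lists in every library (y axis; x axis, groups; circles female, triangles male; bars mean ± SD of the library medians). The histone median was -0.29 to 0.02 in KQ hippocampus, -0.15 to 0.02 in WT hippocampus, -0.08 to 0.14 in KQ neocortex and -0.16 to 0.14 in WT neocortex, so that the groups overlap, and the noncoding RNA and choroid plexus lists spread further.

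The comparison of KQ with WT mice within each region asked whether the acetylation mimic changed these genes. No clustered histone gene passed in either region. In hippocampus 0 of 60 passed (limma, 18310 genes tested), where 0% of all genes passed, and 0 of 60 had an unadjusted p under 0.05, where 12.1% of all genes did. In neocortex 0 of 60 passed (limma, 18329 genes tested), where 0.0382% of all genes passed, and 2 of 60 had an unadjusted p under 0.05, where 13.7% did. With both regions in 1 fit, 0 of 60 passed in hippocampus, where 0.386% of all genes did, and 2 had an unadjusted p under 0.05, where 14.8% did. In the same fit 0 of 60 passed in neocortex, where 0.224% did, and 1 had an unadjusted p under 0.05, where 14.4% did. A p that misses the threshold does not show equal levels, and the residual degrees of freedom were 3 in hippocampus and 4 in neocortex. The hippocampus fit passed no gene at all, not even Tardbp, whose KQ and WT libraries lay apart. A miss in that fit therefore says little about the histone genes. The paper reported differentially expressed genes in each region with its own test, which was not run here.

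In hippocampus 51 of 60 genes had a negative difference, KQ minus WT, with a median of -0.10 against -0.00469 over all genes. The genes varied together from library to library, so the signs counted here and for neocortex are not independent. The 10 H3 genes were all negative with a median of -0.15, and 10 of 12 H4 genes were negative with a median of -0.12. The lowest p belonged to Hist1h2ag (76.2% of windows shared), which measured -0.29, -0.21, -0.20, -0.11 and -0.17 in KQ hippocampus against -0.04, -0.05, -0.05 and -0.08 in WT hippocampus, with no overlap. Its difference was -0.15 ± 0.071 (SE), with a 95% interval of -0.32 to 0.02 (adjusted p = 0.44, limma). Hist1h2bj did not overlap either, at -0.02, -0.17, -0.16, 0.08 and -0.04 in KQ hippocampus against 0.11, 0.09, 0.24 and 0.10 in WT hippocampus. These were 2 of 60 genes below in every KQ library, where 5.35% of all genes were, and 0 of 60 were above, where 4.1% were. Hist1h2ad (63.6% shared), Hist1h2ac, Hist2h3b (77.1% shared), Hist3h2ba and Hist1h3a followed by p, at -0.19, -0.25, -0.18, -0.16 and -0.17, and none passed (adjusted p = 0.46 to 0.513, limma). The extremes were Hist1h4a at -0.25 ± 0.23 and Hist1h4m (88.1% shared) at 0.20 ± 0.283, and in the fit over both regions Hist1h4h at -0.31 ± 0.199 and Hist1h2bf at 0.09 ± 0.0722. In that fit Hist1h4m stood at -0.26 ± 0.469, so its sign depended on the fit.

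In neocortex 44 of 60 genes had a negative difference, with a median of -0.04 against -0.00368 over all genes, and all 12 H4 genes were negative with a median of -0.12. The genes with an unadjusted p under 0.05 were positive and belonged to the Hist3 cluster. Hist3h2a measured -0.03, -0.01, 0.06, 0.05, -0.02 and -0.04 in KQ neocortex (F1, F2, F3, M1, M2, M3) against -0.19, -0.12, -0.03, -0.15 and -0.23 in WT neocortex, where only F3 lay within the KQ range. Its difference was 0.17 ± 0.0485 with a 95% interval of 0.06 to 0.28, and the adjusted p of 0.254 (limma) missed the threshold, while Hist3h2a passed at an adjusted p of 0.0245 with no sex or litter term, a fit that ignores the degrees of freedom spent on their removal. Hist3h2ba was at 0.16 ± 0.0613 (adjusted p = 0.313, limma). In the hippocampus fit these genes stood at -0.02 ± 0.0863 and -0.16 ± 0.0907. In the fit over both regions Hist3h2a stood at 0.05 ± 0.0701 in hippocampus and 0.15 ± 0.0656 in neocortex, so its sign in hippocampus depended on the fit, and Hist3h2ba stood at -0.12 ± 0.0916 and 0.10 ± 0.0857. The interactions in that fit, hippocampus minus neocortex, were -0.10 ± 0.0894 and -0.21 ± 0.117, and that of Hist3h2ba had the lowest p among the members (adjusted p = 0.829, limma). Hist1h2bn, Hist1h4a, Hist1h2bj and Hist1h4i came next by p, all negative, at -0.13, -0.28, -0.14 and -0.20. The lowest difference was that of Hist1h4m (88.1% shared), at -0.57 ± 0.472 (adjusted p = 0.585, limma). No gene had all KQ neocortex libraries apart from all WT neocortex libraries in either direction, where 4.29% of all genes were below and 4.22% above.

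**Figure D4:**
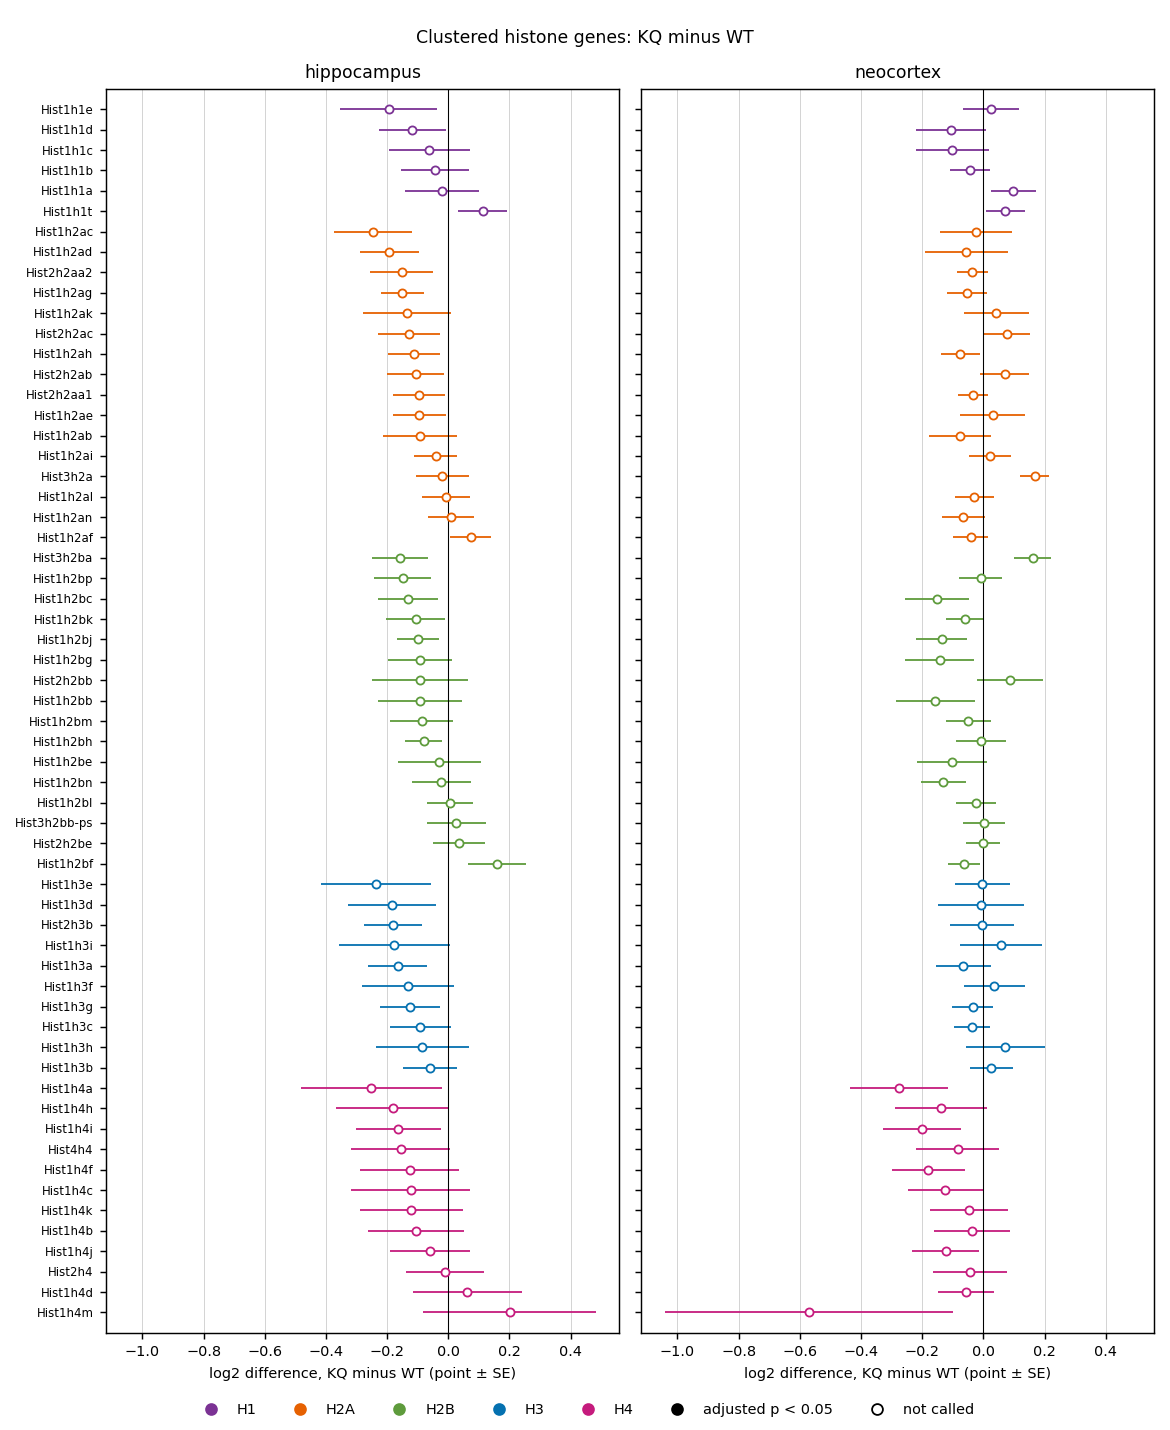
Difference between KQ and WT mice (x axis, log2, KQ minus WT) for each of the 60 genes (rows, by histone type), in hippocampus on the left and neocortex on the right, as point ± SE. No point is filled, since 0 genes passed an adjusted p of 0.05, and 51 points in hippocampus and 44 in neocortex lie left of 0.

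Single libraries turned the sign of these medians. In hippocampus the median difference was -0.19 without WT M1 and 0.01 without KQ F1, and in neocortex it was -0.18 without WT M2 and 0.04 without KQ F1. The histone variant genes outside the clusters were negative too, for 11 of 11 in hippocampus with a median of -0.11 and for 8 of 11 in neocortex with a median of -0.03, and 0 passed (limma, 0 at an unadjusted p under 0.05 in each region). Of the 8 nuclear long noncoding RNAs, all were positive in each region, with medians of 0.40 in hippocampus and 0.60 in neocortex, and 0 passed (limma, 1 and 3 at an unadjusted p under 0.05). Choroid plexus markers had a median difference of 1.72 in hippocampus, and oligodendrocyte markers one of -0.33, with 0 of 8 passing in either list (limma, 8 and 7 at an unadjusted p under 0.05). No gene of any other list passed within a region or in the fit over both. Their part in the histone values was not tested.

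The 60 genes varied together from library to library within a group. After the group means were taken out, the median Pearson correlation over the 1770 pairs of members was 0.63 over the 9 hippocampus libraries and 0.62 over the 11 neocortex libraries, where the mean over pairs of all genes was 0.000408 and 0.000666, against means of 0.54 and 0.56 for the members. A mean over pairs of all genes lies near 0 where positive and negative values cancel, so it is no yardstick for the agreement within a list. The member correlations share libraries, the removal of litter and, for copies, reads. KQ hippocampus M1 stood high, with a member median of 0.02 against -0.29, -0.29, -0.28 and -0.23 in the other KQ hippocampus libraries. WT neocortex M2 stood low, at -0.16 against 0.07, 0.14, 0.12 and 0.04 in the other WT neocortex libraries. Without KQ hippocampus M1 the median correlation in hippocampus was 0.32, and without WT neocortex M2 that in neocortex was 0.49.

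**Figure D5:**
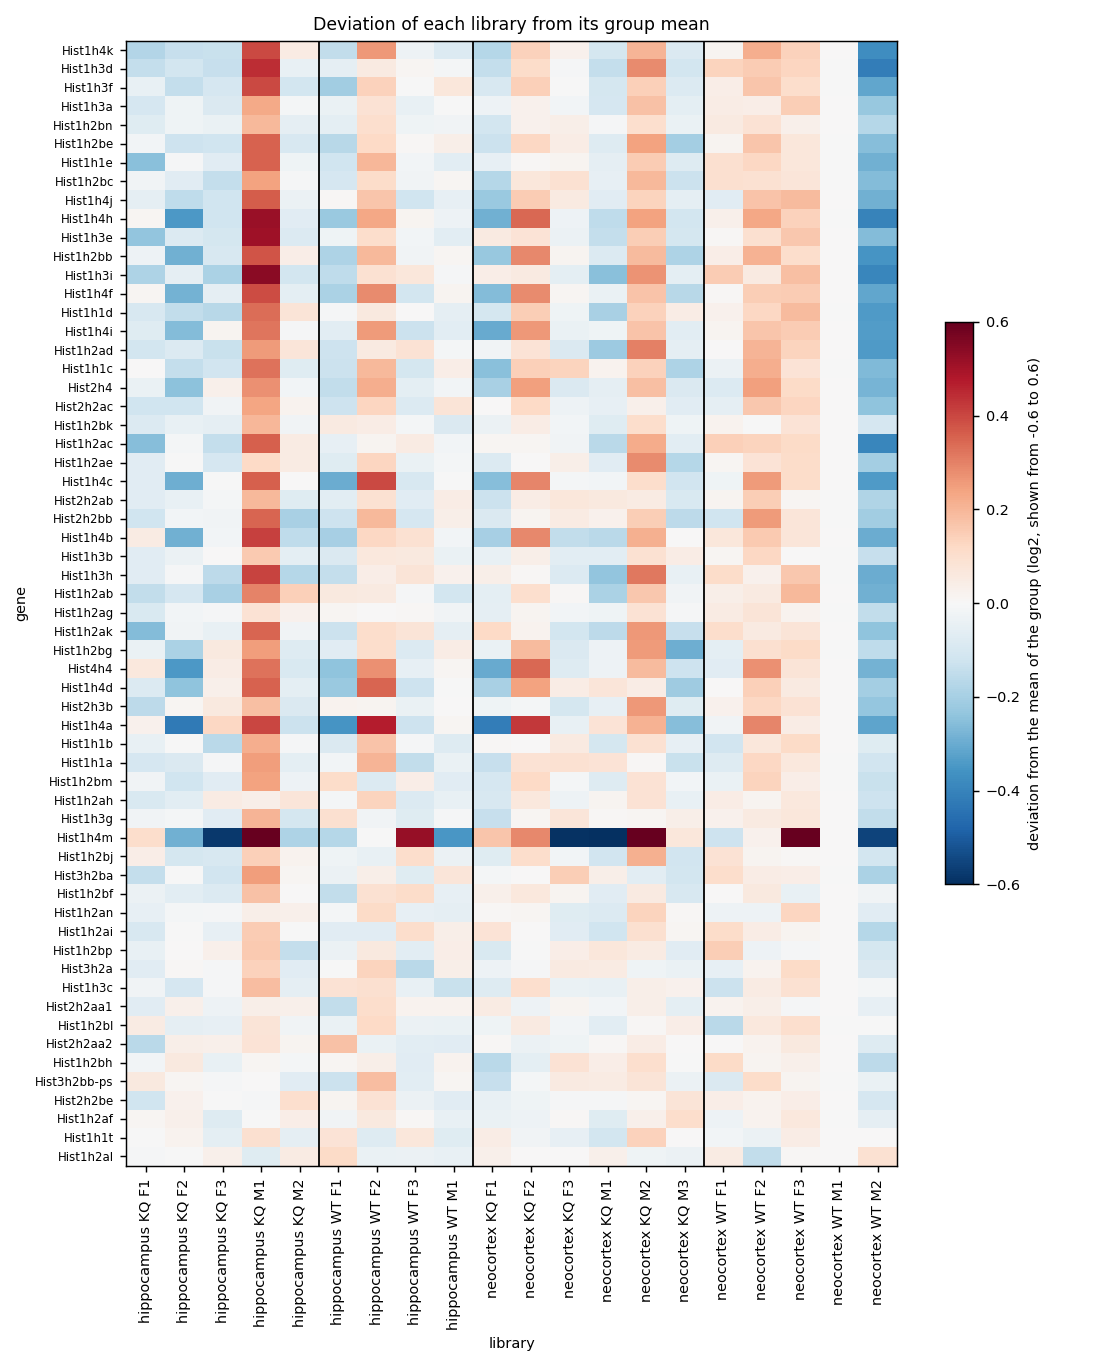
Deviation of each library (columns) from the mean of its group, for the 60 genes (rows), as log2 on a colour scale from -0.6 to 0.6, ordered by the correlation of a gene with the median of the others. Most rows share the high column of KQ hippocampus M1 and the low column of WT neocortex M2, and WT neocortex M1 is blank because its values lie on the group mean.

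Members followed this common pattern to different degrees. Hist1h4k, Hist1h3d and Hist1h3f correlated with the median of the other 59 genes at 0.98 in neocortex, and at 0.96, 0.94 and 0.93 in hippocampus. Hist2h2be was looser, at 0.20 in hippocampus and 0.56 in neocortex, as were Hist1h1t (0.21 and 0.32), Hist1h2af (0.20 and 0.40) and, in hippocampus, Hist2h2aa2 (0.17). The pseudogene Hist1h2al, at chr13:51200084-51203066 and outside the span of the other Hist1 genes (21715711 to 23764412), ran opposite at -0.61 and -0.64, with values of only -0.13 to 0.15. Hist1h4m, with 88.1% of windows shared, had the widest spread within groups, an SD of 0.51 in hippocampus and 0.68 in neocortex, with -0.59 to 0.93 in KQ hippocampus, -0.10 to 0.77 in WT hippocampus, -1.17 to 1.24 in KQ neocortex and -0.05 to 1.16 in WT neocortex. Its value of -0.59 was tied in the KQ F3 libraries of hippocampus and neocortex, which may be a floor.

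The library medians of other lists moved with or against those of the members, again as deviations from group means and with no test. The histone variants followed them at a Pearson correlation of 0.70 in hippocampus and 0.80 in neocortex, and the short non-polyadenylated RNAs at 0.76 and 0.79. The median of those short RNAs was tied at -0.06 in KQ neocortex F1, WT hippocampus F1 and KQ hippocampus F1, which may be a floor. Nuclear long noncoding RNAs ran opposite, at -0.76 and -0.44. S phase genes stood at 0.62 and 0.18, choroid plexus markers at 0.07 and 0.09, and neuron markers at 0.49 and 0.06. The genes for histone message processing and decay stood at -0.82 and -0.31, and microglia markers at 0.67 and 0.50. Endothelial markers stood at -0.71 in hippocampus and 0.14 in neocortex, leukocyte markers at 0.67 and 0.19, and erythroid markers at 0.55 and 0.29. The S phase medians themselves stayed within -0.07 and 0.04 in every library, and those of the processing and decay genes within -0.05 and 0.03. The hippocampus values leaned on KQ hippocampus M1. That library deviated by 0.24 for the members and by -0.04 for the processing and decay genes, the furthest of any hippocampus library in each. List correlations without it are not given here.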

How the data were processed

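Per the paper's methods, the authors trimmed reads with cutadapt, mapped them with STAR 2.5.2b to mm10, quantified RefSeq transcripts with Salmon, and used DESeq2 1.34.0 in R 4.1.0 for variance stabilisation. The deposited values are log2-like, with sex and litter effects removed by the authors with limma. No counts were used here, so depth is unknown.

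Values of 20 libraries were fitted with limma 3.58.1 (R 4.3.3, statmod 1.5.0) with sex and litter as terms, within each region and over both. Genes with tied values in all libraries of 1 sex and litter within a region, where more than 1 such library existed, were not tested. P-values were two-sided and adjusted over all genes tested by Benjamini-Hochberg, with a threshold of 0.05. Named members were all those called, the 6 with the lowest p in each of the within-region genotype and region comparisons, and the extremes of each genotype comparison. Further members and genes of lists were chosen after their values were seen. The members and lists were chosen with earlier results of these data known. Scripts were tested on simulated data. Alternatives changed the terms, filter, centring, variance prior and libraries. Sequences came from RefSeq (GRCm38.p6) and GENCODE M21 (GRCm38).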

Additional observations from a re-analysis of the deposited data

Results flagged for a closer look

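Of 136 sets of library values examined (a gene or the histone median in 1 group of 4 to 6 libraries), 12 held a library far from the others. The rule flags about 1 in 20 sets where values are independent and normal. Removal of litter ties libraries to each other here, so that rate need not hold and the 12 are not set against it. KQ hippocampus M1 was the highest of its group in 9 of the 12. Its value was -0.19 for Hist1h1a (next highest -0.45), -0.082 for Hist1h2bm (-0.35), 0.0905 for Hist1h2bn (-0.13) and 0.0132 for Hist1h3a (-0.22). It was 0.15 for Hist1h3e (-0.44), 0.0353 for Hist1h3h (-0.38), 0.0785 for Hist1h3i (-0.52) and -0.0742 for Hist2h2ab (-0.28). The histone median of that library was 0.0186 (-0.23). These genes vary together, so the sets are not independent. WT neocortex M2 was lowest for Hist1h2ac at -0.29 (next lowest 0.10), WT hippocampus F3 was highest for Hist1h2bj at 0.24 (next highest 0.11), and KQ neocortex M2 was highest for Hist2h3b at 0.26 (next highest -0.01).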

How the results depend on the processing

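Most values kept their direction and side of the threshold. Genes lower in hippocampus numbered 36 in KQ mice and 17 in WT mice with no sex or litter term (23.1% and 21.4% of all genes), with sex without litter (22.4% and 20.4%), and with litter as a random effect (22.6% and 20.7%), settings that do not count the degrees of freedom the authors' removal had used. They numbered 33 and 15 with the female mouse as a random effect (19.8% and 17.2% of all genes). For genotype in neocortex 1 gene, Hist3h2a, passed under each of the first named settings, where 15.0%, 10.6% and 13.2% of all genes did, and with no sex or litter term or litter as a random effect 1 gene passed in each region in the fit over both, where 11.6% to 13.4% of all genes did. Without the libraries of litters 1 and 2, an alternative chosen after seeing the data as was that on correlations, 11 were lower in KQ mice (17.1% of all genes). With the replicate block the counts were 30 in KQ mice and 13 in WT mice (19.9% and 16.4% of all genes), and no member passed for genotype. The KQ and WT libraries F2 and F3 of each region, and M1 of neocortex, came from different litters, so these numbers do not mark littermates. Deviations of same-numbered KQ and WT libraries correlated at -0.60 to 0.12. Removal of litter and group means shifts such correlations, so they cannot show pairing.

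Leaving out 1 library at a time, the counts lower in hippocampus ran between 11 and 40 in KQ mice and between 2 and 24 in WT mice, with 1 higher throughout, and 0 passed for genotype or the interaction. The histone median ran between -0.28 and -0.16 in KQ mice and -0.24 and -0.09 in WT mice for region. For genotype it ran between -0.19 and 0.0134 in hippocampus (the highest without KQ F1) and -0.18 and 0.0372 in neocortex (the highest without KQ F1), and in the fit over both regions between -0.18 and -0.07 and between -0.17 and -0.0061. The neocortex median was 0.0046 without WT F3, KQ F3 or KQ M1. The interaction median ran between -0.14 and 0.0024. The correlation ran between 0.32 and 0.68 in hippocampus and 0.49 and 0.67 in neocortex. Hist1h4i ran between -0.52 and 0.0013 in neocortex, the highest without KQ F1. The causes were not tested. Depth is unknown, so no floor of counts could be set for low genes, and only tied values were used to drop genes.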
